A study of Homo sapiens with 18 samples.

Results

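The MHC class II presentation genes described here are 9 genes of antigen presentation, HLA-DRA, HLA-DRB1, HLA-DPA1, HLA-DPB1, HLA-DMA, HLA-DMB, CD74, CTSS and CIITA, out of 62710 genes in the deposited count table. They were chosen by symbol, each had exactly 1 row, and all 9 passed the filter on low counts that left 17030 genes tested. The samples are spheroids of MDA-MB-231, an established human triple-negative breast cancer cell line, analysed by bulk polyA RNA-seq in 18 libraries. The 6 groups of 3 are MMP14-KO spheroids and WT spheroids (labelled Wildtype, and called control in the study's design text), each taken from hanging droplets after 5 days of formation, after 24 h in a collagen hydrogel or after 48 h in one. All groups began as spheroids of 2000 cells with 100000 cells per sample, and no added cytokine is named for any of them. MMP14 is a collagen-cutting protease held in the cell membrane. The labels do not say how MMP14 was targeted, or whether the MMP14-KO cells are 1 clone or a pool. They also do not say whether the 3 samples of a group are separate cultures, so the p-values measure the spread between these samples, which may be technical.

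MHC class II molecules are pairs of an alpha and a beta chain that carry peptides from endosomes to the cell surface, where CD4+ T cells read them. The pairs are built with the invariant chain CD74, which blocks the peptide groove until endosomal proteases such as cathepsin S (CTSS) cut it down to a fragment called CLIP, and HLA-DM then exchanges CLIP for peptide. Transcription of the class II chain genes depends on CIITA, a coactivator that binds no DNA itself and is recruited by factors on paired promoter elements, the X box (bound by RFX proteins) and the Y box (bound by NF-Y). Class II is constitutive in B cells and dendritic cells, and in many other cells it is induced by interferon-gamma, through CIITA.

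Library totals were 19819401 to 33352163 reads, and the 9 genes together took 0.17% to 0.19% of them in MMP14-KO droplets and 0.16% to 0.19% in WT droplets. In collagen they took 0.070% to 0.086% in MMP14-KO and 0.053% to 0.086% in WT. MMP14 itself was at 138 to 166 CPM (read counts scaled to library size) in the 9 MMP14-KO libraries and at 1284 to 2249.7 CPM in the 9 WT libraries, without overlap, and the labels do not say where in the gene the edit lies. The cell line markers VIM, CD44, AXL and CAV1 were present in every group, with summed levels of 3356 to 5647 CPM in MMP14-KO libraries and 3185 to 6019 CPM in WT libraries. The B cell marker MS4A1, the T cell markers CD3E and CD2, and TYROBP of myeloid cells had 0 reads in all 18 libraries, and all 5 B cell markers stayed under 1 CPM everywhere. Other markers of the same lists were present: the T cell gene CD3D had 105 reads in all, PTPRC and LCP1 were seen in every library, and of the myeloid list CD68 was at 86.3 to 131 CPM, CD14 at 7.34 to 29.5, LYZ at 2.21 to 14.1 and CSF1R at 1.37 to 4.18 CPM. Summed B cell markers were 0.0496 to 0.308 CPM in MMP14-KO libraries and 0.0307 to 0.167 CPM in WT libraries. In bulk RNA a smaller share of cells expressing a gene and less of its RNA per cell cannot be told apart.

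Each of the 9 genes had at least 187 reads in every library. Per kilobase of merged exons, CD74 and HLA-DRA were the highest of the 9 in all 6 groups. In MMP14-KO droplets HLA-DRA averaged 309 ± 11.9 CPM per kb and CD74 308 ± 19.6, and in WT droplets HLA-DRA averaged 283 ± 42.9 and CD74 311 ± 25.5 (SD, n = 3 each). HLA-DRB1, the beta chain partner of HLA-DRA, was at 32.8 ± 3.17 CPM per kb in MMP14-KO droplets and 27.1 ± 5.49 in WT droplets. CIITA was the lowest of the 9 per kb in every group, at 2.22 ± 0.0424 in MMP14-KO droplets and 2.43 ± 0.127 in WT droplets. This rank depends on its 20757 bases of merged exons, the most of the 9. In CPM it averaged 46.1 in MMP14-KO droplets, above HLA-DRB1 (40.3) and CTSS (31.5). In WT droplets it averaged 50.5 CPM, above HLA-DRB1 (33.3) and CTSS (39.3). Merged exons overstate the length of genes with many alternative exons, and HLA-DRB1 is polymorphic with a close copy in HLA-DRB5, so levels between genes are approximate.

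Promoter sequence is shown for class II chain genes on chromosome 6, and no link between it and the changes in level was tested. Of the 9, 6 matched an entry in the RefSeq promoter table (GRCh38.p14, 300 bases around each start): CD74, HLA-DRB1, HLA-DMA, HLA-DMB, HLA-DPA1 with 2 starts, and HLA-DPB1. HLA-DRA, CIITA and CTSS had no entry. The windows below, of 70 bases each and on the strand of the gene, were placed at a match to an X box or Y box motif or to a run shared between members. Of the members' windows only that of HLA-DRB1 holds both GNAAC and ATTGG on the gene's strand, and those of HLA-DMB and HLA-DPA1 hold no ATTGG. HLA-DPB1 had no GNAAC in its 300 bases. Only exact letters were searched, so a missing match does not show that an X box or Y box is absent. CD74 had ATTGG on the other strand only. Capitals mark the X box core GCAACAG, its looser form GNAAC where a Y box follows, and the Y box letters ATTGG on the gene's strand. They also mark the run of 10 bases ACTGATGATG, which overlaps GNAAC in HLA-DRB1 and HLA-DMB. In HLA-DMB the GNAAC is not marked as such, since no ATTGG follows it on that strand.
HLA-DRB1, chr6:32589866-32589935, minus strand: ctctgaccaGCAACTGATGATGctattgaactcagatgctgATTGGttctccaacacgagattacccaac
HLA-DMB, chr6:32941055-32941124, minus strand: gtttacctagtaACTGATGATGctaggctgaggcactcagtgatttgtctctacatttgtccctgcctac
HLA-DMA, chr6:32953149-32953218, minus strand: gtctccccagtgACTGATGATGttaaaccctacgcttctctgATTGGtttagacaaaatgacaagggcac
HLA-DPA1, chr6:33073690-33073759, minus strand: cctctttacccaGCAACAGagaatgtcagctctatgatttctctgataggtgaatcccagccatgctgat
HLA-DPB1, chr6:33075879-33075948, plus strand: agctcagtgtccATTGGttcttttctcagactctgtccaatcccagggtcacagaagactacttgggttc
HLA-DOA, chr6:33009634-33009703, minus strand: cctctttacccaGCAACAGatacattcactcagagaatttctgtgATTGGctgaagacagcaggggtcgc

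HLA-DRB1, HLA-DMB and HLA-DMA share ACTGATGATG, a run that occurs on either strand in 30 of 35116 promoters of the table (0.0854%). It was found by searching the 6 members' promoters for runs of 9 to 14 bases held by at least 3 of them, after the promoters had been read. HLA-DPA1 and HLA-DOA, a class II chain outside the 9 that is described further on, both hold the X box core GCAACAG, in HLA-DPA1 at 1 of its 2 starts, which 4.33% of all promoters hold on either strand, and their windows share an unbroken run of 20 bases. HLA-DRB1 is the only one of the 6 with GNAAC followed on the same strand by ATTGG at a start-to-start distance of 20 to 40 bases, and 3.04% of all promoters have such a pair. ATTGG alone is in 34.6% of promoters and GNAAC alone in 82.5%, so single matches to either say little. The interferon-gamma activated element TTCNNNGAA (7.66% of promoters) and the E box CACGTG (7.26%) had no match in the 6 members' windows of 300 bases.

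All 9 genes were lower in collagen than in droplets, in both genotypes and at both times, and in each of these 4 comparisons the 3 collagen libraries lay below the 3 droplet libraries for all 9. The 9 of 9 called lower in edgeR's quasi-likelihood test, with Benjamini-Hochberg adjustment over all tested genes, compare with 25.7% of all tested genes called lower at 24 h and 23.6% at 48 h in MMP14-KO spheroids, and with 28.7% at 24 h and 27.5% at 48 h in WT spheroids. Groups that did not overlap are common here, at 61.4% of all tested genes for MMP14-KO at 24 h, 54.9% for MMP14-KO at 48 h, 62.0% for WT at 24 h and 61.8% for WT at 48 h. The median log2 fold change of the 9 was -1.47 at 24 h and -1.46 at 48 h in MMP14-KO, and -1.61 at 24 h and -1.75 at 48 h in WT, while the median over all tested genes lay between -0.0035 and 0.021 in the 4 comparisons. The highest adjusted p among the 36 tests was 1.24e-05. The 4 comparisons share droplet libraries within a genotype.

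**Figure D1:**
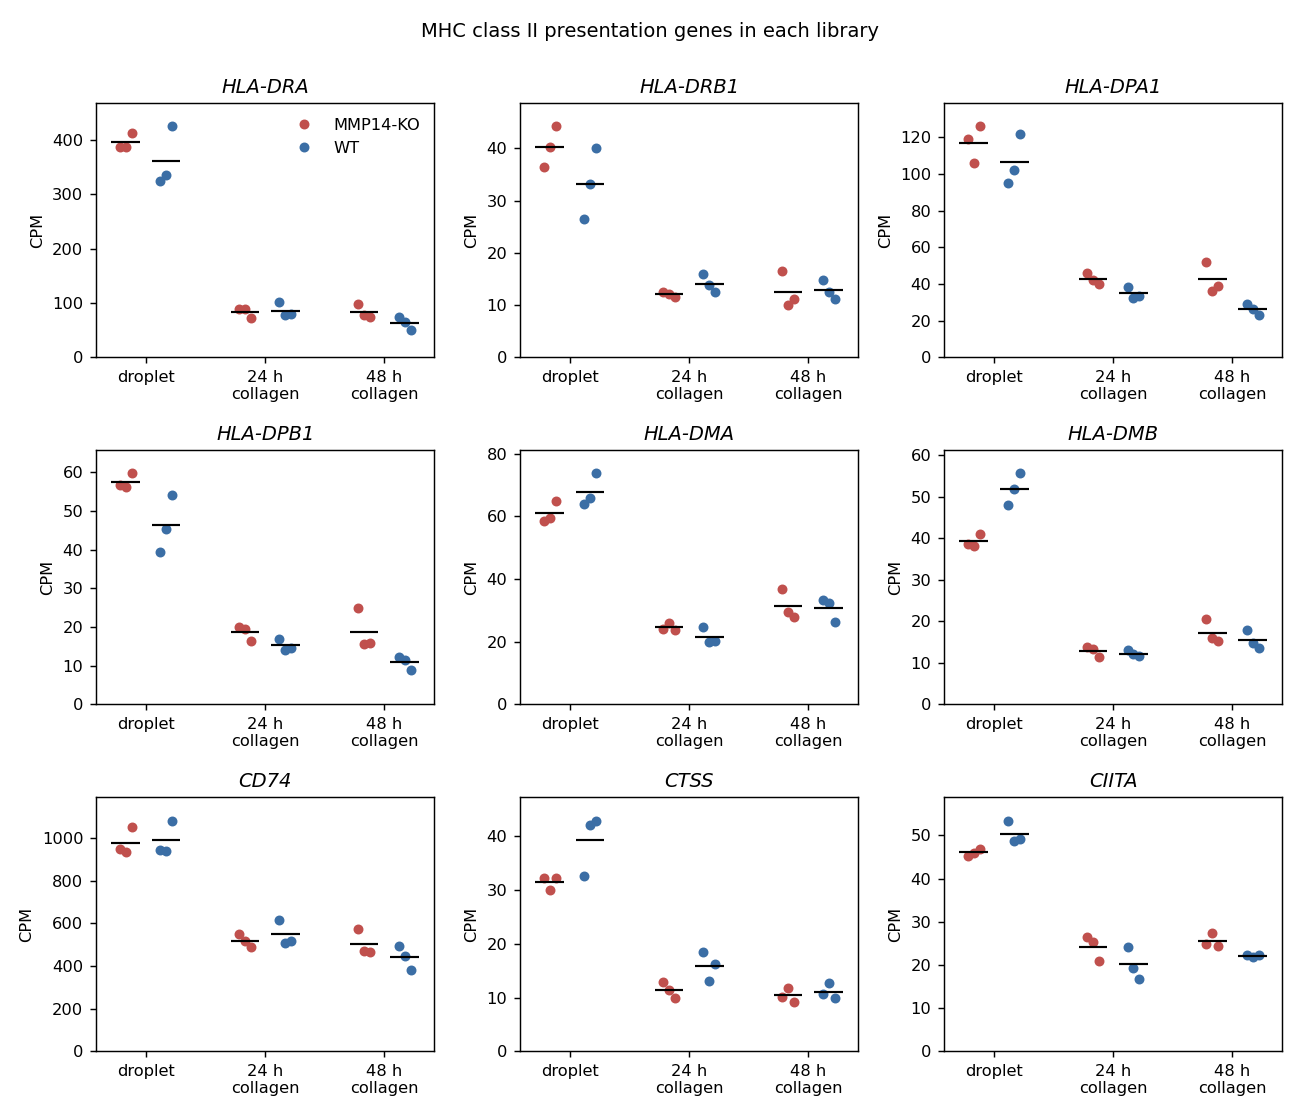
Levels of the 9 genes in CPM (linear axis from 0) in each of the 18 libraries, by condition, with MMP14-KO in red to the left of WT in blue. Points are libraries and black lines group means; for every gene the 6 droplet libraries lie above the 12 collagen libraries, from 386 to 413 CPM in MMP14-KO droplets and 325 to 425 CPM in WT droplets down to 51.1 CPM in 1 WT library at 48 h for HLA-DRA.

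HLA-DRA, the alpha chain of HLA-DR (chromosome 6, 32439842 to 32445046, plus strand, GRCh38), fell most of the 9 in MMP14-KO at both times and in WT at 48 h. In MMP14-KO libraries it was at 386, 388 and 413 CPM in droplets, 88.7, 89.1 and 72.1 CPM at 24 h and 97.4, 78.2 and 74.0 CPM at 48 h. In WT libraries it was at 325, 335 and 425 CPM in droplets, 102, 77.5 and 79.1 CPM at 24 h and 75.0, 64.6 and 51.1 CPM at 48 h. Every collagen library was far below every droplet library, and WT at 48 h held the lowest value. In MMP14-KO the level at 24 h was 21.0% of that in droplets, with a log2 fold change of -2.25 (SE 0.16, adjusted p = 8.97e-08), and at 48 h it was 21.1%, with -2.25 (SE 0.16, adjusted p = 1.04e-07). In WT it was 23.8% at 24 h, with -2.07 (SE 0.16, adjusted p = 1.05e-07), and 17.6% at 48 h, with -2.51 (SE 0.17, adjusted p = 2.31e-08).

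HLA-DRB1 (chromosome 6, 32578769 to 32589848, minus strand) supplies the beta chain of HLA-DR. Its level was 36.4, 40.2 and 44.2 CPM in MMP14-KO droplets, 12.5, 12.2 and 11.5 CPM at 24 h and 16.4, 10.0 and 11.2 CPM at 48 h. WT libraries held 26.5, 33.3 and 40 CPM in droplets, 15.9, 13.9 and 12.5 CPM at 24 h and 14.8, 12.4 and 11.2 CPM at 48 h. The collagen libraries of both genotypes lay between 10.0 and 16.4 CPM, below all droplet libraries, and in CPM the droplet libraries were more spread in WT than in MMP14-KO. Its log2 fold changes were -1.74 (SE 0.17, adjusted p = 6.45e-07) for MMP14-KO at 24 h and -1.67 (SE 0.17, adjusted p = 1.16e-06) at 48 h, and -1.24 (SE 0.17, adjusted p = 1.24e-05) for WT at 24 h and -1.38 (SE 0.17, adjusted p = 5.56e-06) at 48 h. The ratio of HLA-DRA to HLA-DRB1 per kb was lower in collagen, at 6.63 ± 0.525 at 24 h and 6.50 ± 0.921 at 48 h against 9.48 ± 0.639 in droplets for MMP14-KO, and at 5.85 ± 0.440 at 24 h and 4.74 ± 0.327 at 48 h against 10.6 ± 1.09 in droplets for WT (SD, n = 3 each), with no overlap of collagen and droplet libraries.

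HLA-DPA1 and HLA-DPB1 encode the alpha and beta chains of HLA-DP and lie head to head on opposite strands of chromosome 6 (33064569 to 33080775, minus, and 33075926 to 33087201, plus), with 4850 bases in common. That stretch is taken from gene starts and ends, introns included, and the overlap of exons alone was not computed. Reads from exons that both genes share cannot be assigned to a gene without strand. Whether counting used strand is not given in the sources used here. HLA-DPA1 was at 119, 106 and 126 CPM in MMP14-KO droplets, 45.9, 42.2 and 40.1 CPM at 24 h and 52.1, 36.4 and 38.9 CPM at 48 h. In WT its level came to 94.8, 102 and 122 CPM in droplets, 38.6, 32.4 and 33.6 CPM at 24 h and 29.1, 26.2 and 23.1 CPM at 48 h. The 3 WT libraries at 48 h were the lowest of all 18, below the 3 WT libraries at 24 h and the 3 MMP14-KO libraries at 48 h. The collagen log2 fold changes were -1.45 (SE 0.13, adjusted p = 2.39e-07) at 24 h and -1.46 (SE 0.13, adjusted p = 2.74e-07) at 48 h in MMP14-KO. In WT they were -1.61 (SE 0.13, adjusted p = 4.88e-08) at 24 h and -2.02 (SE 0.14, adjusted p = 6.17e-09) at 48 h in WT.

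HLA-DPB1, the beta chain of HLA-DP, was at 56.9, 56.3 and 59.7 CPM in MMP14-KO droplets, 20.1, 19.6 and 16.4 CPM at 24 h and 24.9, 15.7 and 15.8 CPM at 48 h. WT spheroids had 39.5, 45.4 and 54.1 CPM in droplets, 16.98, 14.1 and 14.7 CPM at 24 h and 12.1, 11.4 and 9.02 CPM at 48 h. As for its partner, the 3 WT libraries at 48 h were the lowest of the 18, and replicate 1 stood above the other 2 in MMP14-KO at 48 h. In log2 fold change these were -1.63 (SE 0.16, adjusted p = 7.36e-07) at 24 h and -1.60 (SE 0.16, adjusted p = 9.95e-07) at 48 h in MMP14-KO. The WT values were -1.61 (SE 0.16, adjusted p = 6.05e-07) at 24 h and -2.09 (SE 0.17, adjusted p = 6.43e-08) at 48 h in WT. The HLA-DPA1 to HLA-DPB1 ratio per kb stayed between group means of 0.984 in MMP14-KO droplets and 1.18 in WT at 48 h.

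HLA-DMA and HLA-DMB encode the chains of HLA-DM, the peptide exchange factor, and sit side by side on the minus strand of chromosome 6 (32948613 to 32969094 and 32934629 to 32941070). HLA-DMA was at 58.5, 59.4 and 65.0 CPM in MMP14-KO droplets, 24.0, 25.9 and 23.8 CPM at 24 h and 36.7, 29.4 and 27.9 CPM at 48 h. The WT values were 63.8, 65.9 and 73.7 CPM in droplets, 24.7, 19.9 and 20.2 CPM at 24 h and 33.43, 32.5 and 26.4 CPM at 48 h. In both genotypes every 48 h library was above every 24 h library, and all stayed below the droplets. Against droplets, the log2 fold changes were -1.31 (SE 0.10, adjusted p = 5.59e-09) at 24 h and -0.96 (SE 0.10, adjusted p = 3.43e-07) at 48 h in MMP14-KO. In WT the falls were -1.65 (SE 0.11, adjusted p = 1.43e-10) at 24 h and -1.14 (SE 0.10, adjusted p = 1.94e-08) at 48 h in WT. From gene starts and ends, HLA-DMA overlaps 435 bases of BRD2 on the other strand. BRD2 had 156584 reads over the 18 libraries against 18152 for HLA-DMA.

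HLA-DMB was at 38.7, 38.0 and 41.1 CPM in MMP14-KO droplets, 13.7, 13.4 and 11.4 CPM at 24 h and 20.5, 16.1 and 15.2 CPM at 48 h. WT levels reached 48.1, 52.0 and 55.6 CPM in droplets, 13.1, 12.1 and 11.6 CPM at 24 h and 17.9, 14.8 and 13.6 CPM at 48 h. The droplet levels of the 2 genotypes did not overlap, with MMP14-KO lower, while at 24 h and 48 h they did. Tested against droplets, the changes were -1.61 (SE 0.11, adjusted p = 1.12e-10) at 24 h and -1.18 (SE 0.10, adjusted p = 8.53e-09) at 48 h in MMP14-KO. WT gave -2.09 (SE 0.11, adjusted p = 1.09e-12) at 24 h and -1.75 (SE 0.10, adjusted p = 1.38e-11) at 48 h in WT. Per kb, the level of HLA-DMA was that of HLA-DMB multiplied by 3.53 ± 0.314 at 24 h and 3.34 ± 0.0451 at 48 h against 2.85 ± 0.0675 in droplets for MMP14-KO, and by 3.23 ± 0.218 at 24 h and 3.68 ± 0.309 at 48 h against 2.40 ± 0.0613 in droplets for WT (SD, n = 3 each).

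CD74, the invariant chain (chromosome 5, 150401637 to 150412929, minus strand), had the most reads of the 9 and one of the smallest falls. It was at 951, 936 and 1051 CPM in MMP14-KO droplets, 549.8, 517 and 489 CPM at 24 h and 575, 471 and 467 CPM at 48 h. For WT the values were 944, 941 and 1083 CPM in droplets, 618, 510.3 and 519 CPM at 24 h and 494, 448 and 380.1 CPM at 48 h. The collagen libraries lay close together and below all droplet libraries, with replicate 3 of WT at 48 h lowest. Relative to droplets, the log2 changes were -0.92 (SE 0.10, adjusted p = 1.47e-06) at 24 h and -0.96 (SE 0.10, adjusted p = 1.04e-06) at 48 h in MMP14-KO. WT changed by -0.85 (SE 0.10, adjusted p = 2.22e-06) at 24 h and -1.17 (SE 0.10, adjusted p = 6.60e-08) at 48 h in WT. The ratio of CD74 to HLA-DRA per kb was 2.52 ± 0.199 at 24 h and 2.44 ± 0.0822 at 48 h against 0.994 ± 0.0256 in droplets for MMP14-KO, and 2.57 ± 0.119 at 24 h and 2.81 ± 0.172 at 48 h against 1.11 ± 0.0737 in droplets for WT (SD, n = 3 each).

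CTSS, the cathepsin that trims the invariant chain (chromosome 1, 150730196 to 150765957, minus strand), was at 32.2, 30.0 and 32.2 CPM in MMP14-KO droplets, 12.8, 11.4 and 9.99 CPM at 24 h and 10.1, 11.8 and 9.27 CPM at 48 h. Among WT libraries the level was 32.7, 42.1 and 43.0 CPM in droplets, 18.5, 13.1 and 16.3 CPM at 24 h and 10.6, 12.7 and 9.97 CPM at 48 h. WT libraries at 24 h lay between the droplets and the 48 h libraries, with no overlap on either side. Against droplets these were log2 fold changes of -1.47 (SE 0.13, adjusted p = 2.69e-08) at 24 h and -1.60 (SE 0.13, adjusted p = 1.25e-08) at 48 h in MMP14-KO. For WT they were -1.30 (SE 0.12, adjusted p = 3.87e-08) at 24 h and -1.83 (SE 0.13, adjusted p = 8.69e-10) at 48 h in WT.

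CIITA, the coactivator of the set (chromosome 16, 10866222 to 10943021, plus strand), was at 45.2, 46.1 and 47.0 CPM in MMP14-KO droplets, 26.4, 25.3 and 20.9 CPM at 24 h and 24.8, 27.4 and 24.4 CPM at 48 h. The WT levels came to 53.5, 48.7 and 49.2 CPM in droplets, 24.3, 19.3 and 16.9 CPM at 24 h and 22.2, 21.9 and 22.3 CPM at 48 h. All 12 collagen libraries were below all 6 droplet libraries. The tests gave log2 fold changes of -0.93 (SE 0.10, adjusted p = 7.80e-08) at 24 h and -0.85 (SE 0.10, adjusted p = 3.02e-07) at 48 h in MMP14-KO. WT showed -1.33 (SE 0.10, adjusted p = 2.57e-10) at 24 h and -1.19 (SE 0.10, adjusted p = 1.61e-09) at 48 h in WT. From gene starts and ends, introns included, CIITA shares 13570 bases with DEXI on the other strand. DEXI had 8857 reads in all against 14337 for CIITA.

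**Figure D2:**
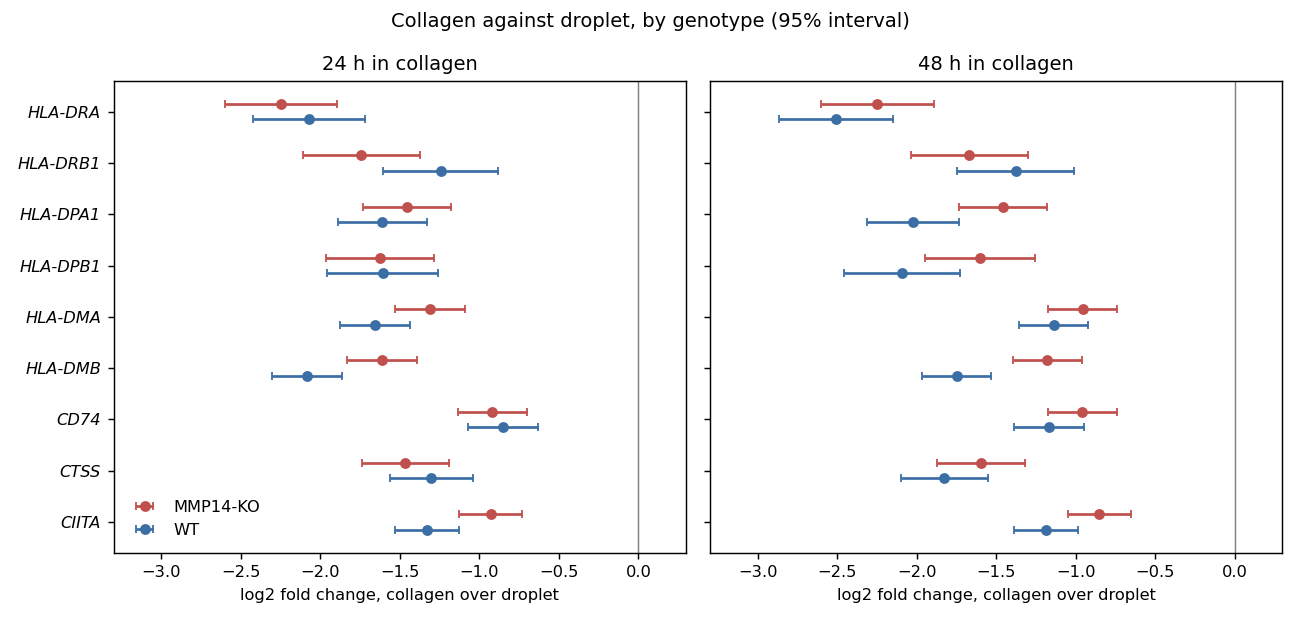
Log2 fold change of collagen over droplet for the 9 genes at 24 h (left) and 48 h (right), with MMP14-KO in red above WT in blue, and 95% intervals from the quasi-likelihood fit as bars. All 36 points lie left of 0, from -2.51 for HLA-DRA in WT at 48 h to -0.85 for CD74 in WT at 24 h and CIITA in MMP14-KO at 48 h.

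Collagen spheroids differed from droplet spheroids in matrix, in time after formation and in a collagenase digestion that droplets did not undergo, and these cannot be told apart. The 8 immediate-early genes of the marker list, which also respond to handling of cells, were all called higher in all 4 comparisons, with summed levels of 3131 to 3313 CPM at 24 h and 1563 to 1803 CPM at 48 h against 494 to 524 CPM in droplets for MMP14-KO, and 3181 to 3847 CPM at 24 h and 1605 to 1700 CPM at 48 h against 424 to 450 CPM in droplets for WT. Of 8 myeloid markers 4 were tested. At both times 2 of these were called lower and 2 missed the threshold in MMP14-KO, and 3 were lower and 1 missed it in WT. Of all tested genes 23.6% to 28.7% were called lower in these comparisons. CD14 and LYZ, picked after their values were seen, were lower in collagen in all 4 comparisons. The log2 fold changes for LYZ were -1.78 and -1.96 in MMP14-KO and -1.87 and -2.05 in WT. The summed myeloid markers were 116 to 154 CPM at 24 h and 103 to 129 CPM at 48 h against 142 to 148 CPM in droplets for MMP14-KO, and 121 to 138 CPM at 24 h and 108 to 129 CPM at 48 h against 144 to 155 CPM in droplets for WT, and TYROBP was at 0 throughout. Summed over 6 endothelial markers the level was 37.8 to 44.0 CPM at 24 h and 38.4 to 48.2 CPM at 48 h against 51.0 to 52.1 CPM in droplets for MMP14-KO, and 18.3 to 28.6 CPM at 24 h and 17.9 to 21.8 CPM at 48 h against 34.3 to 37.7 CPM in droplets for WT. Mitochondrial genes took 2.68% to 2.94% of reads at 24 h and 2.88% to 3.68% at 48 h against 0.971% to 1.74% in droplets for MMP14-KO, and 2.34% to 2.69% at 24 h and 3.07% to 4.18% at 48 h against 2.10% to 2.65% in droplets for WT. The part of these in the fall of the 9 genes was not tested.

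Between MMP14-KO and WT the differences were small in droplets and involved 1 of the 9 genes. HLA-DMB was lower in MMP14-KO droplets, at 75.7% of the WT level, with a log2 fold change of -0.40 (SE 0.10, adjusted p = 0.00516). The 1 of 9 called compares with 17.4% of all tested genes. CTSS, at -0.32 with a 95% interval of -0.57 to -0.07, and HLA-DPB1, at 0.31 with -0.01 to 0.63, did not overlap between genotypes but missed the threshold, with adjusted p of 0.0696 and 0.180. CD74, at -0.01 with an interval of -0.23 to 0.20, was the closest of the 9 to 0. Non-overlap was seen for 4 of the 9 and for 34.9% of all tested genes. Without replicate 1 of the WT droplets, CTSS passed the threshold with an adjusted p of 0.0194, as it did in limma-voom (0.0359) and in a fit of these groups alone (0.0404).

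At 24 h in collagen CTSS was lower in MMP14-KO, at 71.4% of WT, with a log2 fold change of -0.49 (SE 0.14, adjusted p = 0.0111), and CIITA was higher, at 121% of WT, with 0.27 (SE 0.10, adjusted p = 0.0456). The CTSS libraries of the 2 genotypes did not overlap, while those of CIITA did. The 2 of 9 called compare with 29.4% of all tested genes. The other 7 missed the threshold, with intervals such as -0.61 to 0.16 for HLA-DRB1 and 0.01 to 0.58 for HLA-DPA1. Of the 9, 3 did not overlap, as did 45.0% of all tested genes. The CTSS call was lost without replicate 1 of WT at 24 h (adjusted p = 0.0554) and without replicate 3 of MMP14-KO at 24 h (adjusted p = 0.0630). The CIITA call was lost without replicate 2 or 3 of WT at 24 h (adjusted p = 0.133 and 0.285), without replicate 1 or 2 of MMP14-KO at 24 h (adjusted p = 0.192 and 0.161) and in a fit of these groups alone (adjusted p = 0.185).

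At 48 h in collagen the 2 chains of HLA-DP were higher in MMP14-KO. HLA-DPA1 was at 163% of WT, with a log2 fold change of 0.70 (SE 0.14, adjusted p = 0.00156) and an interval of 0.41 to 1.00, and HLA-DPB1 was at 174%, with 0.80 (SE 0.18, adjusted p = 0.00395) and 0.42 to 1.19. The 3 MMP14-KO libraries lay above the 3 WT libraries for both, and both kept their call in all 14 other settings tried for this comparison. The 2 of 9 called compare with 29.5% of all tested genes, and 3 of the 9 did not overlap between genotypes, as did 40.3% of all. HLA-DRA, at 0.39 with an interval of 0.04 to 0.74, missed the threshold (adjusted p = 0.0923) but passed it without replicate 1 of WT at 48 h (adjusted p = 0.0397). HLA-DRB1, at -0.02 with an interval of -0.41 to 0.38, and HLA-DMA, at 0.03 with -0.19 to 0.25, were the closest to 0. The myeloid markers LYZ and CD14, picked after their values were seen, were also higher in MMP14-KO at 48 h, with 0.53 (SE 0.16, adjusted p = 0.0138) and 0.54 (SE 0.18, adjusted p = 0.0312). CSF1R, at 0.45, and CD68, at -0.10, missed the threshold. Of the other lists, 2 of 3 tested endothelial markers were called higher (summed level 38.4 to 48.2 CPM in MMP14-KO against 17.9 to 21.8 CPM in WT), 1 of 3 leukocyte markers higher (2.28 to 2.50 CPM in MMP14-KO against 1.29 to 2.00 CPM in WT), and of 5 fibroblast markers 2 higher and 1 lower (44.1 to 54.1 CPM in MMP14-KO against 37.3 to 38.5 CPM in WT). The part of these markers in the HLA-DP result was not tested.

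**Figure D3:**
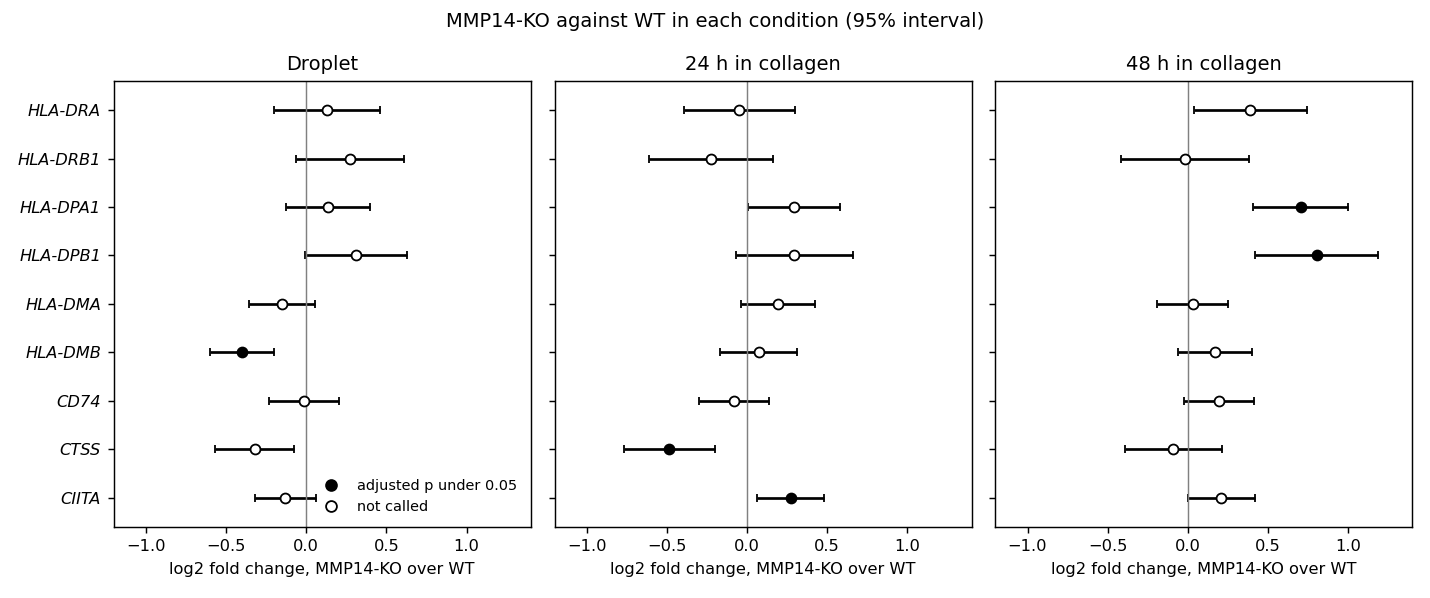
Log2 fold change of MMP14-KO over WT for the 9 genes in droplets, at 24 h and at 48 h in collagen, with 95% intervals as bars and filled points where the adjusted p was under 0.05. Filled points are HLA-DMB in droplets (-0.40), CTSS (-0.49) and CIITA (0.27) at 24 h, and HLA-DPA1 (0.70) and HLA-DPB1 (0.80) at 48 h.

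Whether the response to collagen differed between genotypes was tested with an interaction term. At 48 h it differed for HLA-DMB, whose fall was smaller in MMP14-KO than in WT, with a difference in log2 fold change of 0.57 (SE 0.15, adjusted p = 0.0259). This 1 of 9 called compares with 6.79% of all tested genes. Its droplet levels differed between genotypes, as given above, and its levels at 48 h overlapped. HLA-DPA1 had a difference of similar size, 0.57 with an interval of 0.17 to 0.96, that missed the threshold (adjusted p = 0.0777). The HLA-DMB call was lost, with adjusted p of 0.0502 to 0.0890, without replicate 2 of the WT droplets, any 1 of the 3 MMP14-KO droplet libraries, replicate 2 or 3 of WT at 48 h, or replicate 1 of MMP14-KO at 48 h. At 24 h none of the 9 passed in edgeR's test, against 7.41% of all tested genes called. DESeq2 called 1 of the 9 there and limma-voom 0. In edgeR's test 3 of 9 had an unadjusted p under 0.05. The share of all tested genes under that looser rule is not given here. The nearest to the threshold at 24 h were HLA-DMB, 0.47 (SE 0.15, adjusted p = 0.0552), and CIITA, 0.40 (SE 0.14, adjusted p = 0.0718). Without replicate 1 of WT at 24 h both passed, with adjusted p of 0.0389 for HLA-DMB and 0.00371 for CIITA, and likewise without replicate 3 of MMP14-KO at 24 h, with 0.0439 and 0.0392.

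From 24 h to 48 h in collagen the 9 genes did not move as one. In MMP14-KO, HLA-DMB was higher at 48 h than at 24 h, with a log2 fold change of 0.43 (SE 0.11, adjusted p = 0.0335), and the other 8 missed the threshold. This 1 of 9 compares with 3.81% of all tested genes called, and 2 of the 9 (HLA-DMB and HLA-DMA) did not overlap between the times, as did 21.4% of all. In WT, HLA-DMA was higher at 48 h, with 0.51 (SE 0.11, adjusted p = 0.00358), and CTSS was lower, with -0.52 (SE 0.14, adjusted p = 0.0146), against 13.2% of all tested genes called. For 7 of the 9 the WT libraries at 48 h and 24 h did not overlap, as for 31.5% of all tested genes. HLA-DRA, HLA-DPA1, HLA-DPB1 and CD74 had negative log2 fold changes in WT, of -0.44, -0.41, -0.48 and -0.32, with adjusted p of 0.0535 to 0.0997, and HLA-DMB a positive one of 0.34 with 0.0509. DESeq2 called 7 of the 9 in WT, these 5 included, and 2486 of all 17030 tested genes. In edgeR's test it was 2 of the 9 and 2248 of all.

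These calls between the 2 times were sensitive to single libraries. The HLA-DMB call in MMP14-KO was lost without replicate 1, 2 or 3 at 24 h (adjusted p = 0.0626, 0.0802 and 0.176), without replicate 1 at 48 h (adjusted p = 0.220) and in a fit of these groups alone (adjusted p = 0.0801). The CTSS call in WT was lost without replicate 1 or 3 at 24 h (adjusted p = 0.0637 and 0.0513) and without replicate 1 or 3 at 48 h (adjusted p = 0.0630 and 0.0689). The HLA-DMA call in WT held in all 14 settings. In WT, HLA-DMB passed without replicate 3 at 48 h (adjusted p = 0.0271), CD74 without replicate 1 at 48 h (adjusted p = 0.0237) and CIITA without replicate 1 at 24 h (adjusted p = 0.0347). Within groups the 9 genes tended to be high or low in the same library. Replicate 1 of WT at 24 h was the highest of its group for 9 of 9 genes, replicate 3 of the MMP14-KO droplets for 9 and replicate 3 of the WT droplets for 8, while replicate 3 was the lowest for 9 in MMP14-KO at 24 h and for 8 in WT at 48 h.

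Ordering the 6 groups by level shows where neighbours did not differ beyond their spread. For HLA-DRA the order was MMP14-KO droplets (396 ± 15.3 CPM), WT droplets (362 ± 54.9), WT at 24 h (86.2 ± 13.7), MMP14-KO at 24 h (83.3 ± 9.73), MMP14-KO at 48 h (83.2 ± 12.5) and WT at 48 h (63.5 ± 11.98 CPM, SD, n = 3 each). The ranges of neighbours overlapped at every step except that from WT droplets to WT at 24 h. For CTSS the order was WT droplets (39.3 ± 5.68 CPM), MMP14-KO droplets (31.5 ± 1.28), WT at 24 h (16.0 ± 2.75), MMP14-KO at 24 h (11.4 ± 1.418), WT at 48 h (11.1 ± 1.399) and MMP14-KO at 48 h (10.4 ± 1.31 CPM), and the first 3 steps were without overlap. For CIITA the order was WT droplets (50.5 ± 2.63 CPM), MMP14-KO droplets (46.1 ± 0.880), MMP14-KO at 48 h (25.6 ± 1.64), MMP14-KO at 24 h (24.2 ± 2.88), WT at 48 h (22.1 ± 0.218) and WT at 24 h (20.2 ± 3.78 CPM), and the ranges overlapped at each step after the third group. The other 6 genes also placed the droplet groups first and second.

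The genes whose levels over the 6 groups ran most like those of HLA-DRA and CIITA were found by the root mean square difference of centred log2 means, among 2380 tested genes with at least 1 CPM in a group and a range of at least 1 on the log2 scale. For HLA-DRA the nearest genes outside the 9 were LGR5 (0.18), BGLAP (0.18), TRIL (0.19), FGF14 (0.19) and GBP4 (0.21). For CIITA they were TENT5C (0.048), IFIH1 (0.050), SLC12A7 (0.053), ERMP1 (0.055) and RAB27B (0.071). Of the other members, HLA-DPB1 lay nearest to HLA-DRA (0.30), and HLA-DMA (0.16) and CD74 (0.17) lay nearest to CIITA. The points are 6 group means, so this is a description of these groups only.

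Of the class II chain genes outside the 9, 4 were tested (HLA-DOA, HLA-DOB, HLA-DQB1 and HLA-DRB5), and HLA-DQA1, HLA-DQA2 and HLA-DQB2 were too low. HLA-DRB3 and HLA-DRB4 had no row in the count table. HLA-DQB1 was low, with 4 reads in replicate 1 of WT at 24 h. Its lowest group mean was in WT at 48 h, at 0.0277 ± 0.0258 CPM per kb (SD, n = 3), so comparisons with that group rest on few reads. HLA-DOA, HLA-DQB1 and HLA-DRB5 were called lower in collagen in all 4 comparisons, and HLA-DOB was called higher in MMP14-KO at 24 h, at 1.11. HLA-DOA, the alpha chain of HLA-DO, which holds HLA-DM in check, was at 15.9, 15.1 and 18.8 CPM in MMP14-KO droplets, 5.19, 5.20 and 3.47 CPM at 24 h and 5.27, 3.90 and 3.42 CPM at 48 h. WT libraries were at 10.9, 9.88 and 11.4 CPM in droplets, 1.75, 1.37 and 1.41 CPM at 24 h and 1.45, 0.334 and 0.820 CPM at 48 h. MMP14-KO libraries were above WT libraries in all 3 conditions. The log2 fold changes of MMP14-KO over WT were 0.63 (SE 0.19, adjusted p = 0.0287) in droplets, 1.62 (SE 0.26, adjusted p = 1.77e-04) at 24 h and 2.26 (SE 0.30, adjusted p = 2.34e-05) at 48 h, and the collagen response at 48 h differed between genotypes by 1.64 (SE 0.36, adjusted p = 0.0152). HLA-DOB, its beta chain partner, was under 1 CPM in all 18 libraries. HLA-DQB1 and HLA-DRB5 missed the threshold between genotypes in every condition, with log2 fold changes at 48 h of 1.16 (interval -0.19 to 2.50) and 0.37 (interval -0.36 to 1.10).

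The 7 genes of the promoter-binding complexes did not move in one direction. In collagen 5 were called lower and 1 higher at 24 h, and 4 lower and 1 higher at 48 h, in MMP14-KO, and 4 lower and 1 higher at 24 h, and 3 lower and 1 higher at 48 h, in WT, with list medians of -0.22 and -0.17 in MMP14-KO and -0.17 and -0.09 in WT. RFX5, the DNA-binding subunit of the RFX complex, fell in all 4, with -0.47 and -0.33 in MMP14-KO and -0.71 and -0.46 in WT at 24 h and 48 h. RFXAP, another subunit of that complex, rose in all 4, with 0.81 and 0.49 in MMP14-KO and 1.02 and 1.10 in WT, and it was lower in MMP14-KO than in WT at 48 h, with -0.52 (SE 0.18, adjusted p = 0.0312). NFYA, the DNA-binding subunit of NF-Y, fell in all 4 by 0.27 to 0.39 on the log2 scale and was lower in MMP14-KO in all 3 conditions, with -0.27 in droplets, -0.32 at 24 h and -0.20 at 48 h.

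Interferon-gamma signalling genes were mostly lower in collagen, with list medians of -0.30 at 24 h and -0.26 at 48 h in MMP14-KO and -0.51 at 24 h and -0.42 at 48 h in WT. IFNG itself had 0 reads in all 18 libraries. Of 11 tested genes 10 were called lower and 1 higher at 24 h, and 7 lower and 1 higher at 48 h, in MMP14-KO, and 9 lower and 1 higher at 24 h, and 8 lower and 2 higher at 48 h, in WT. IRF1, an interferon-induced transcription factor, fell, with log2 fold changes of -0.30 at 24 h and -0.31 at 48 h in MMP14-KO and -0.59 at 24 h and -0.75 at 48 h in WT, and its fall at 48 h was smaller in MMP14-KO by 0.44 (SE 0.09, adjusted p = 0.0101). JAK2, a kinase of the receptor, was higher in MMP14-KO at 48 h, with 0.31 (SE 0.11, adjusted p = 0.0350).

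Most of the 18 genes of MHC class I presentation fell as well. In collagen 16 of 18 were called lower and 1 higher at both times in MMP14-KO, and 17 lower and 1 higher at both times in WT. The list medians were -0.59 at 24 h and -0.57 at 48 h in MMP14-KO and -0.54 at 24 h and -0.62 at 48 h in WT, against -1.47, -1.46, -1.61 and -1.75 for the 9 class II genes in the same order. The gene called higher was TAP2, a subunit of the peptide transporter, with 0.15 and 0.15 in MMP14-KO and 0.25 and 0.24 in WT. NLRC5, which does for class I genes what CIITA does for class II, fell, with log2 fold changes of -0.27 and -0.19 in MMP14-KO and -0.58 and -0.61 in WT. The difference between the 2 lists was not tested.

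Genes of endosomal processing outside the 9 were mixed. Of 13 tested, 7 were called lower and 3 higher at 24 h, and 7 lower and 1 higher at 48 h, in MMP14-KO, and 7 lower and 3 higher at 24 h, and 9 lower and 3 higher at 48 h, in WT. CTSD, an aspartic protease, fell, with log2 fold changes of -0.44 and -0.51 in MMP14-KO and -0.93 and -1.26 in WT, and its response at 48 h differed between genotypes by 0.75 (SE 0.13, adjusted p = 0.00747). CTSL, a cathepsin that can also trim the invariant chain, fell, with log2 fold changes of -0.91 and -0.78 in MMP14-KO and -0.35 and -0.47 in WT. CD83, a surface protein known from dendritic cells to oppose removal of class II by MARCHF1, was called higher in collagen at 24 h in MMP14-KO and at both times in WT, with 0.50 in MMP14-KO and 1.00 and 0.42 in WT. It missed the threshold at 48 h in MMP14-KO, with 0.22, and was lower in MMP14-KO than in WT in all 3 conditions, with -0.37 in droplets, -0.88 at 24 h and -0.56 at 48 h. MARCHF1, a ubiquitin ligase that removes class II from the surface and was picked here after its values were seen, was called higher, with 1.79 and 1.89 in MMP14-KO and 1.95 and 1.97 in WT.

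**Figure D4:**
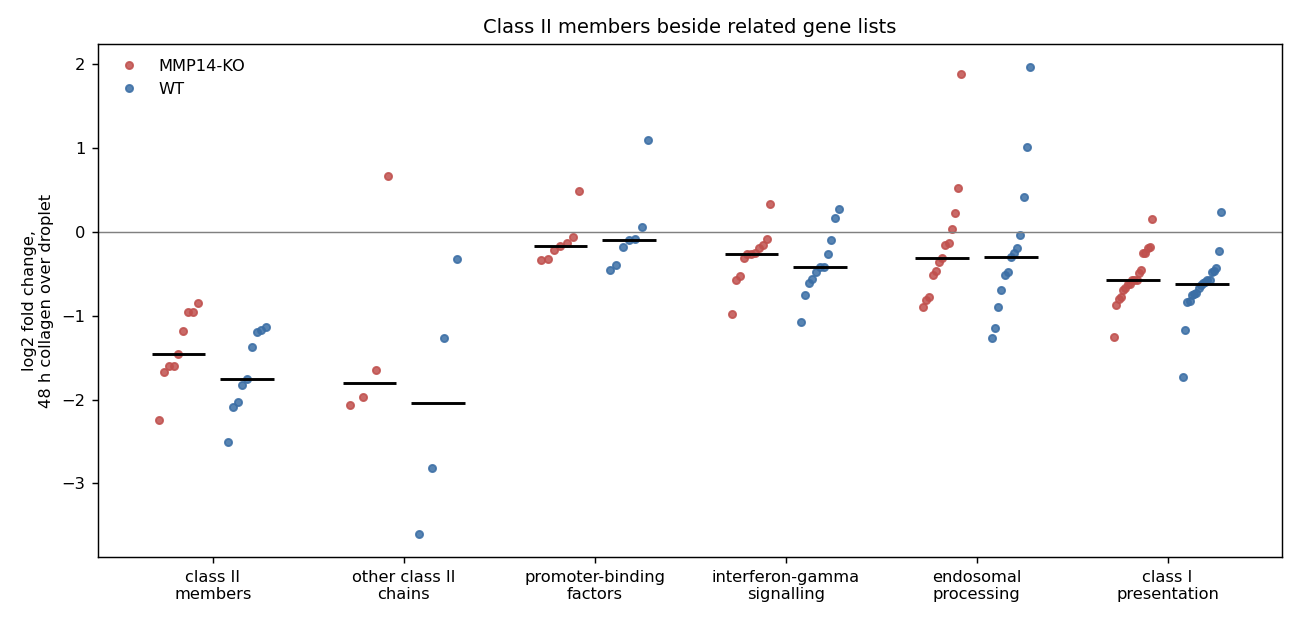
Log2 fold change of 48 h collagen over droplet for every tested gene of 6 lists, with MMP14-KO in red to the left of WT in blue, points sorted by value and black lines at the list medians. The 9 class II members have medians of -1.46 in MMP14-KO and -1.75 in WT, and the 18 class I genes of -0.57 in MMP14-KO and -0.62 in WT.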

How the data were processed

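The authors deposited 1 table of expected counts per gene for the 18 libraries. Per the labels' protocols, collagen gels were digested with collagenase before RNA extraction. Per the submitters' processing notes, cutadapt 2.3, FastQC 0.11.8, STAR 2.7.8a, RSEM 1.3.3, MultiQC 1.7 and DESeq2 1.42.0 were used, on GRCh38. The deposited expected counts were all whole numbers, so none was rounded. No source used here states the annotation release or strand setting. The 4 reporter rows held 0 reads and were left out.

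Libraries were grouped by the genotype and treatment labels. Counts were fitted in R 4.3.3 with edgeR 4.0.16 (TMM, filterByExpr with a minimum count of 10, robust quasi-likelihood fit of 6 group means, 12 residual degrees of freedom), and p-values were adjusted by Benjamini-Hochberg over 17030 genes within each of 11 contrasts, with a threshold of 0.05. Intervals are 95%. Levels are CPM on TMM-scaled library sizes, and lengths and positions come from GENCODE 29, matched by gene identifier. Each member had at least 187 reads in every library. Errors are taken from the spread of libraries within groups, pooled over the 6 groups and moderated across genes. Scripts were tested on simulated counts. Alternatives were DESeq2 1.42.0, limma-voom (limma 3.58.1), other scalings and filters, the compared groups alone, a replicate block and leaving out each library. Members and gene lists were chosen with earlier results of these data known. All members are named in every contrast, and from each other list up to 4 genes with the strongest MMP14-KO against WT change at 48 h among those called in at least 1 contrast and reaching 1 CPM in a group, plus genes that bear on the members. Genes named outside this rule are marked, and some it selects are not reported here.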

Additional observations from a re-analysis of the deposited data

Results flagged for a closer look

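The fall of HLA-DMB in collagen at 48 h was called different between genotypes in the main fit. The call held in 13 of 20 other settings, and adjusted p reached 0.0890 in edgeR's test with 1 library left out. MMP14-KO and WT differed in droplets (adjusted p = 0.00516) but missed the threshold at 48 h (adjusted p = 0.276, edgeR's test). Its log2 fold change was -1.18 in MMP14-KO and -1.75 in WT, a difference of 0.569 (adjusted p = 0.0259, edgeR's interaction test). Its level was 39.3 ± 1.59 CPM in MMP14-KO droplets and 51.9 ± 3.77 CPM in WT droplets, and 17.3 ± 2.84 CPM in MMP14-KO and 15.4 ± 2.23 CPM in WT at 48 h (SD, n = 3 each).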

How the results depend on the processing

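The falls of all 9 genes in collagen kept their direction and call in every alternative run, and none of the 45 called results reversed. Of values for called results, 358 of 360 under other settings and 255 of 276 with a library left out stayed past the threshold. Each member has a single row in the table, so summing rows of a symbol changes nothing. Counts of the 9 genes called moved by over 1.5 times as follows, with the count over all tested genes in brackets. In the main fit, with 17030 genes tested, that count was 2964 for MMP14-KO against WT in droplets, 5010 at 24 h and 5029 at 48 h. It was 2248 between the times in WT, 648 in MMP14-KO, and 1262 and 1156 in the 24 h and 48 h interactions. Without a filter on low counts 33364 genes were tested. Of the 9, 4 (3169) were then called for MMP14-KO against WT in droplets, 4 (4981) at 24 h and 4 (5163) at 48 h. For 48 h against 24 h there were 7 (2465) in WT and 2 (1101) in MMP14-KO. The 24 h and 48 h interactions had 4 (2046) and 3 (2110). DESeq2 called 7 (2486) and 2 (906) between the times in WT and MMP14-KO, and 1 (1783) and 2 (1761) in the interactions. Library size alone gave 4 (2238) between the times in WT and 1 (1242) in the 24 h interaction. A floor of 1 CPM, with 14790 genes tested, gave 4 (2329) between the times in WT. With limma-voom 2 (3012) were called in droplets. The compared groups alone gave 2 (3009) in droplets, and 4 (1930) and 0 (438) between the times in WT and MMP14-KO. They gave 1 (1547) and 2 (885) in the interactions, and 15660 to 16741 genes were tested in these fits. The cause of these moves was not tested. Depth limits HLA-DRB1, HLA-DPB1 and CTSS most, with as few as 213, 209 and 187 reads in a library.

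Same-numbered libraries correlated at r over 0.1 in 6 of 45 pairs (-0.095 to 0.23), and 12 of 18 libraries correlated best with their own number, a hint from the data. The labels name no shared source, and the libraries were not treated as paired. With a replicate block the calls were 5 between the times in WT (2549 of all 17030 tested genes) and 2 in each interaction (1782 of all at 24 h). HLA-DMB (0.0366) and CIITA (0.0407) passed at 24 h and HLA-DPA1 (0.0494) joined HLA-DMB at 48 h (adjusted p in edgeR's test). The count over all genes in the 48 h interaction was 1838, against 1156 without the block. That count was 2110 without a filter and 1761 in DESeq2. Without a filter it was 2046 against 1262 in the 24 h interaction and 1101 against 648 between the times in MMP14-KO. Scaling by library size alone put the higher share of calls at 61.9% against 46.5% for MMP14-KO over WT at 24 h and 64.3% against 48.9% at 48 h, 44.2% against 54.5% between the times in MMP14-KO, and 59.0% against 44.8% and 73.9% against 59.0% in the 24 h and 48 h interactions, and the median of all genes moved by at most 0.053.

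With 1 library left out the counts, beside those of all genes in brackets, were 1 to 2 (1959 to 2949) for MMP14-KO against WT in droplets. They were 1 in every case at 24 h (3408 to 5035). Between the times they were 1 to 2 in WT (1349 to 2027) and 0 to 1 in MMP14-KO (324 to 854). The 24 h and 48 h interactions gave 0 to 2 (414 to 1953) and 0 to 1 (316 to 1977). From 17381 to 17428 genes were tested. Signs reversed for genes that were not called. Over libraries left out, MMP14-KO against WT ranged from -0.059 to 0.068 for CD74 in droplets, from -0.11 to 0.093 for HLA-DRA and -0.13 to 0.015 for CD74 at 24 h, and from -0.27 to 0.12 for HLA-DRB1, -0.100 to 0.098 for HLA-DMA and -0.19 to 0.016 for CTSS at 48 h. Between the times in MMP14-KO the ranges were -0.13 to 0.067 for HLA-DRA, -0.18 to 0.20 for HLA-DRB1, -0.18 to 0.087 for HLA-DPA1, -0.25 to 0.13 for HLA-DPB1, -0.15 to 0.0023 for CD74 and -0.024 to 0.13 for CIITA. In the 24 h interaction they were -0.15 to 0.077 for HLA-DPB1 and -0.15 to 0.020 for CD74. Library size alone reversed CD74 in droplets (0.0026), HLA-DRA at 24 h (0.0058), HLA-DRB1 at 48 h (0.034) and HLA-DPB1 in the 24 h interaction (0.020). HLA-DRA between the times in MMP14-KO, at 0.00090, turned to -0.013 with RLE size factors, -0.019 with library size alone, -0.017 without a filter, -0.013 with the floor of 1 CPM, -0.015 in DESeq2, -0.0047 with the replicate block and -0.0050 with the compared groups alone.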

Other observations

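Genes of T cell costimulation and inhibition, which act beside class II at the cell surface, moved in both directions in collagen. Of 7 tested, 2 were called higher at both times in both genotypes. PDCD1LG2, a ligand of the inhibitory receptor PD-1, was called higher, with log2 fold changes of 2.12 at 24 h and 2.00 at 48 h in MMP14-KO and 2.28 and 2.16 in WT. CD274, the other PD-1 ligand, which was picked after its values were seen, was at 54.3, 53.6 and 59.0 CPM at 24 h and 37.9, 51.9 and 42.8 CPM at 48 h against 9.24, 10.4 and 10.2 CPM in droplets for MMP14-KO. In WT it was at 59.8, 70.5 and 68.9 CPM at 24 h and 48.9, 46.7 and 50.7 CPM at 48 h against 9.49, 10.2 and 12 CPM in droplets. ICOSLG, the ligand of the costimulatory receptor ICOS, was called lower in all 4 comparisons, with -2.72 and -1.95 in MMP14-KO and -1.98 and -2.48 in WT. At 48 h TNFSF9, the ligand of 4-1BB, was higher in MMP14-KO than in WT, with 1.05 (SE 0.17, adjusted p = 6.92e-05), as was ICOSLG, with 0.93 (SE 0.18, adjusted p = 5.02e-04), while PDCD1LG2 was lower, with -0.64 (SE 0.14, adjusted p = 0.00157).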
